A study of Homo sapiens with 12 samples.

Results

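ZNF genes carry the systematic symbol for zinc finger proteins, and 214 of them were expressed in U937 cells, a human acute myeloid leukaemia line. They were taken from 509 symbols made of ZNF and a number, with or without a final letter, and ZNF117 was left out. Each symbol was represented by the transcript row with its highest mean over the 12 libraries, and symbols with a mean of at least 20 normalized reads were kept. The members were thus chosen by their measured level over all 4 groups together, and the levels themselves are described and not tested. Just inside the limit lay ZNF7 with a mean of 20.7, ZNF33B with 20.6 and ZNF527 with 20.6. Just outside lay ZNF664 with 19.4, ZNF816 with 19.2 and ZNF18 with 18.8. All 214 members passed the filter on low values, which asked for at least 10 normalized reads in at least 3 libraries.

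Most ZNF proteins bind DNA through tandem C2H2 fingers, short loops held by a zinc ion that each read a few bases. The largest subfamily adds a KRAB domain, which recruits the scaffold TRIM28 and with it the H3K9 methyltransferase SETDB1, and many of its proteins silence transposable elements. Human ZNF genes lie in clusters, above all on chromosome 19, and several are silenced by CpG methylation of their promoters in tumours. Decitabine (DAC) is a cytidine analogue that traps DNA methyltransferases and lowers DNA methylation, and all-trans retinoic acid (ATRA) activates nuclear retinoic acid receptors.

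Total RNA without ribosomal RNA was sequenced in 3 libraries each of untreated cells, cells given DAC, cells given ATRA and cells given DAC + ATRA. Cells received a pulse of 200 nM DAC on each of 3 days, ATRA at 1 µM went in with the last pulse, and RNA was taken at 72 h. The labels give 72 h for the treated and 96 h for the untreated cultures, so culture time and treatment cannot be told apart by these labels. All 4 groups share the same cell line and were grown in serum with GM-CSF according to the labels, and the triplicates are described as technical, so the p-values below measure only the spread between these libraries. In bulk RNA, fewer cells with a transcript and less transcript per cell cannot be told apart.

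Between 8042435 and 10683593 reads per library were assigned to transcripts. The share of mitochondrial reads was 40.6% to 42.5% in the untreated and 36.3% to 38.3% in the DAC + ATRA libraries. No pair of libraries within a group was a repeat of the same library, since their counts differed beyond counting error (chi-square divided by its degrees of freedom, 2.21 to 9.52). ATRA library 9 stood furthest from its group, with a root mean square deviation of 0.25 on the log2 scale over the ZNF genes against 0.15 to 0.22 in the other libraries. Of 7 myeloid markers, 5 had a mean of at least 10 in untreated, DAC and ATRA cells and 6 in DAC + ATRA cells, and their summed level was 57105 to 63952 in untreated cells, 34338 to 50193 with DAC, 36399 to 53351 with ATRA and 28685 to 31180 with DAC + ATRA. Every treated library thus had a lower myeloid sum than every untreated library. Such a sum follows its most abundant markers and does not give the direction of each. The study itself reports that LYZ, one of the 7, was induced by DAC in U937 cells. T cell markers summed to 2.76 to 10.2 in untreated cells, with CD3D and CD3E at 0, to 294 to 386 with DAC, 4.55 to 7.39 with ATRA and 121 to 176 with DAC + ATRA, and 1 of the 3 reached a mean of 10 with DAC. B cell markers summed to 485 to 557, 874 to 940, 502 to 719 and 1654 to 1780 in the same order, with 2 of 4 at a mean of 10 in untreated cells and 3 of 4 with DAC. The part of these markers in the ZNF results was not tested. The epithelial markers EPCAM and KRT18 summed to at most 9.96 in every library.

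The promoter windows of 7 members are shown first, because DAC acts on CpG methylation and these are 6 of the 7 members with the largest rise with DAC and ZNF519, one of the members that fell most. The member left out of these 7 risers is ZNF366, and ZNF250 fell by slightly more than ZNF519. The windows of ZNF366 and ZNF250 are not shown. Each window runs from 250 bases before to 50 bases after the start of the member's own transcript in GENCODE 44, on the hg38 build and on the coding strand, and capitals mark the dinucleotide CG. They stand in the order of their log2 fold change with DAC, from the highest to the lowest.
ZNF595, chr4:53054-53353, plus strand
ZNF595: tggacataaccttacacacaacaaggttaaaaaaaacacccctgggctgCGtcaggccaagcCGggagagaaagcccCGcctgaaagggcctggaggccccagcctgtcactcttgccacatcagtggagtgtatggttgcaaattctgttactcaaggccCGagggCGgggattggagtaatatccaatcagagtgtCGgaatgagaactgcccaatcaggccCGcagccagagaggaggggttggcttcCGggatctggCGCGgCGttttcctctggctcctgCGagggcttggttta
ZNF562, chr19:9675009-9675308, minus strand
ZNF562: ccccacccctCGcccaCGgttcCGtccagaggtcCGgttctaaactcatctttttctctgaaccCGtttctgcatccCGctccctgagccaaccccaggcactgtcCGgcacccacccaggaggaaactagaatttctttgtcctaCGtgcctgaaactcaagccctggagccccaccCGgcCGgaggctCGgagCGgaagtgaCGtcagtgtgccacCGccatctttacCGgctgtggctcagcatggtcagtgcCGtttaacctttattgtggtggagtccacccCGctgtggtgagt
ZNF560, chr19:9498567-9498866, minus strand
ZNF560: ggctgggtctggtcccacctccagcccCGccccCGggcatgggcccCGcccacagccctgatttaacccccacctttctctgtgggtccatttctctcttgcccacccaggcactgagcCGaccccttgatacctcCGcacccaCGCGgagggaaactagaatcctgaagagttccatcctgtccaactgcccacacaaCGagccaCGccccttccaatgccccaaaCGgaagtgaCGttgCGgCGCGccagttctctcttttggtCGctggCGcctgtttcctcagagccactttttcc
ZNF648, chr1:182061663-182061962, minus strand
ZNF648: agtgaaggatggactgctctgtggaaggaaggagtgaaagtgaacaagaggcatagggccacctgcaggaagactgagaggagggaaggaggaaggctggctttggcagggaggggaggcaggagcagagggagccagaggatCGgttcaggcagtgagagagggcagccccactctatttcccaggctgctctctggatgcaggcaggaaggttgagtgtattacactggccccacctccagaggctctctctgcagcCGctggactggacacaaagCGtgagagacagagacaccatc
ZNF486, chr19:20166964-20167263, plus strand
ZNF486: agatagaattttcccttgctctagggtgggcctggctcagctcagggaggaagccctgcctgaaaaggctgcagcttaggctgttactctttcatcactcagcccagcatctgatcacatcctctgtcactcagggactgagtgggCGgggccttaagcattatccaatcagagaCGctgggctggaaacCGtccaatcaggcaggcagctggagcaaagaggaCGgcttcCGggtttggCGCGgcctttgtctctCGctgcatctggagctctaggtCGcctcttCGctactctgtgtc
ZNF350, chr19:51986791-51987090, minus strand
ZNF350: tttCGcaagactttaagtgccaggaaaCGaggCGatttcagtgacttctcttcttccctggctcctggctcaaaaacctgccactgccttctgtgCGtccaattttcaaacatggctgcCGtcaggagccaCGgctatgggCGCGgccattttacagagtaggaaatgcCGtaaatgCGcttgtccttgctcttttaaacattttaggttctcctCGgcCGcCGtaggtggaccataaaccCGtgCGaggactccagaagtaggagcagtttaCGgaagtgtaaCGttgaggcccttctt
ZNF519, chr18:14132404-14132703, minus strand
ZNF519: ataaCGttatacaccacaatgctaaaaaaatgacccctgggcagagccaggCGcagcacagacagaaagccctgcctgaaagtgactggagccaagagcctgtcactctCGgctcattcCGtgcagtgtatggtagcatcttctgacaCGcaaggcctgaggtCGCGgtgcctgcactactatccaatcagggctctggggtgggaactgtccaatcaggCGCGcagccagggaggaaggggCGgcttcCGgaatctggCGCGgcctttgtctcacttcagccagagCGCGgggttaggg

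The windows of ZNF562 and ZNF350 hold 17 CG each, that of ZNF560 holds 16, that of ZNF519 holds 15, that of ZNF595 holds 12 and that of ZNF486 holds 10, while ZNF648 has 3. The window of ZNF366, which is not shown, holds 5. Among the windows of 18957 tested transcripts, 50.6% hold at least 17 CG, 77.2% at least 5 and 87.1% at least 3. Over the members, the median was 21.5 CG in the 62 genes that rose with DAC, 23 in the 17 that fell and 22.5 in the 134 that did not pass the test and had a window. The 13 members that rose at least 4-fold had a median of 17 CG, equal to the median of all tested transcripts. The median over 8771 tested protein-coding transcripts was 25. These counts describe the sequence, and no methylation of these windows was measured here.

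With DAC, 62 of the 214 members rose and 17 fell against untreated cells, while 135 did not pass the test. The called genes were 36.9% of the members (limma, Benjamini-Hochberg adjusted p under 0.01 over all 19373 rows tested). Over all rows tested, 33.5% were called, 22.2% up and 11.3% down. Over the 6355 protein-coding rows with a mean of at least 20 it was 43.2%, 32.5% up and 10.6% down, so the share of members that rose, 29.0%, lay between these backgrounds. The median log2 fold change of the members was 0.18, against 0.05 over all rows and 0.19 over those protein-coding rows. At least 2-fold changes were called in 31 members upward and 4 downward, 16.4% of the members against 21.5% of all rows (15.8% up and 5.69% down). Scaling by library size instead of the deposited size factors shifted the median of all rows from 0.05 to -0.07, and the split was then 50 up and 27 down, 64.9% up instead of 78.5%.

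The members with the largest fold changes had few or no reads in untreated cells. The 15 members with an untreated mean under 20 could reach a mean of 20 over the 12 libraries only through the treated groups, so their difference was largely fixed by the choice of members. Of these 15, 12 are among the 62 called, and the values of ZNF595, ZNF560, ZNF562, ZNF648, ZNF486, ZNF366, ZNF350, ZNF585B and ZNF77 with DAC are given as a description, with no test.

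ZNF595, a KRAB zinc finger gene with 17 fingers near the end of the short arm of chromosome 4 (hg38, chr4:53304-68500), had 5.51, 2.73 and 3.69 normalized reads in the untreated libraries. With DAC it had 532, 579 and 530, so the groups were far apart (log2 fold change on log2(value + 1) 6.82 ± 0.19 SE, n = 3 per group). The row rests on 1072 exon bases, 661 of them outside other annotated transcripts.

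ZNF560 (chr19:9466355-9498616), with 13 fingers, had no read in any untreated library. With DAC its values were 78.9, 123 and 99.6, at least 36.5-fold higher than the 3 reads per library that a count of 0 allows. ATRA alone left it at 0, 0 and 0.832. ZNF562 (chr19:9641808-9675058), with 6 fingers and a KRAB domain, lies in the same cluster and showed a single read among the untreated libraries and 91.9, 150 and 136 normalized reads with DAC. The ratio was 416, with an exact 95% interval of 74.2 to 16471 that covers counting error only. None of the 12380 exon bases of this ZNF562 transcript lies outside other transcripts in GENCODE 44, and its 7 other rows sum to at most 1.32, so what part of the gene these reads cover is uncertain.

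ZNF648 (chr1:182054570-182061712), with 10 fingers and no KRAB pattern, had 2.76, 2.73 and 0.924 normalized reads in untreated cells and 56.2, 78.9 and 71.7 with DAC. All DAC libraries were above all untreated libraries (log2 fold change 4.53 ± 0.31 SE). It is the only row of its symbol and shares no exon base with another transcript. ZNF486 (chr19:20167214-20200488), a KRAB gene with 9 fingers, went from 2.76, 3.64 and 0 to 32.4, 38.0 and 39.8 (3.86 ± 0.52 SE).

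ZNF366 (chr5:72439903-72507410), known as DC-SCRIPT for its place in dendritic cells, had 0, 0.910 and 1.85 normalized reads in untreated cells. DAC gave 17.3, 37.0 and 51.8, a ratio of 39.1 with a 95% counting interval of 13.02 to 193. The DAC libraries spread 3-fold among themselves but none came near the untreated level.

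ZNF350 (chr19:51964340-51986840), also called ZBRK1, is a repressor that works with BRCA1. It had 4.60, 6.37 and 6.46 normalized reads in untreated cells and 47.6, 96.4 and 47.8 with DAC (log2 fold change 3.18 ± 0.31 SE). One DAC library was about 2 times as high as the others, and all were above the untreated range.

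Not all strong inductions started from silence. ZNF703 (chr8:37695782-37700019), a corepressor of the NET family known as an oncogene of luminal breast cancer, had 269, 229 and 229 normalized reads untreated and 1364, 2088 and 2240 with DAC (2.93 ± 0.18 SE, limma adjusted p 4.16e-11). Its relative ZNF503 had 125, 96.5 and 86.8 untreated and 301, 473 and 506 with DAC (2.02 ± 0.26 SE, limma adjusted p 1.20e-05). ZNF467 went from 252, 244 and 220 to 1151, 1165 and 1729 (2.47 ± 0.17 SE, limma adjusted p 1.09e-10). These 3 genes had at least 86.8 normalized reads in every untreated library, and their DAC values did not overlap with the untreated ones.

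The KRAB gene ZNF792 (chr19:34956354-34964229) had 62.5, 60.1 and 67.4 normalized reads untreated and 361, 534 and 464 with DAC (2.80 ± 0.14 SE, limma adjusted p 1.21e-14). ZNF585B (chr19:37181579-37210536), with 21 fingers, went from 3.68, 4.55 and 5.54 to 38.9, 41.9 and 32.9 (2.81 ± 0.33 SE). It has a near-identical neighbour, ZNF585A, and reads could be split between them. ZNF77 went from 5.51, 6.37 and 9.24 to 31.3, 54.6 and 54.8 (2.56 ± 0.29 SE).

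**Figure D1:**
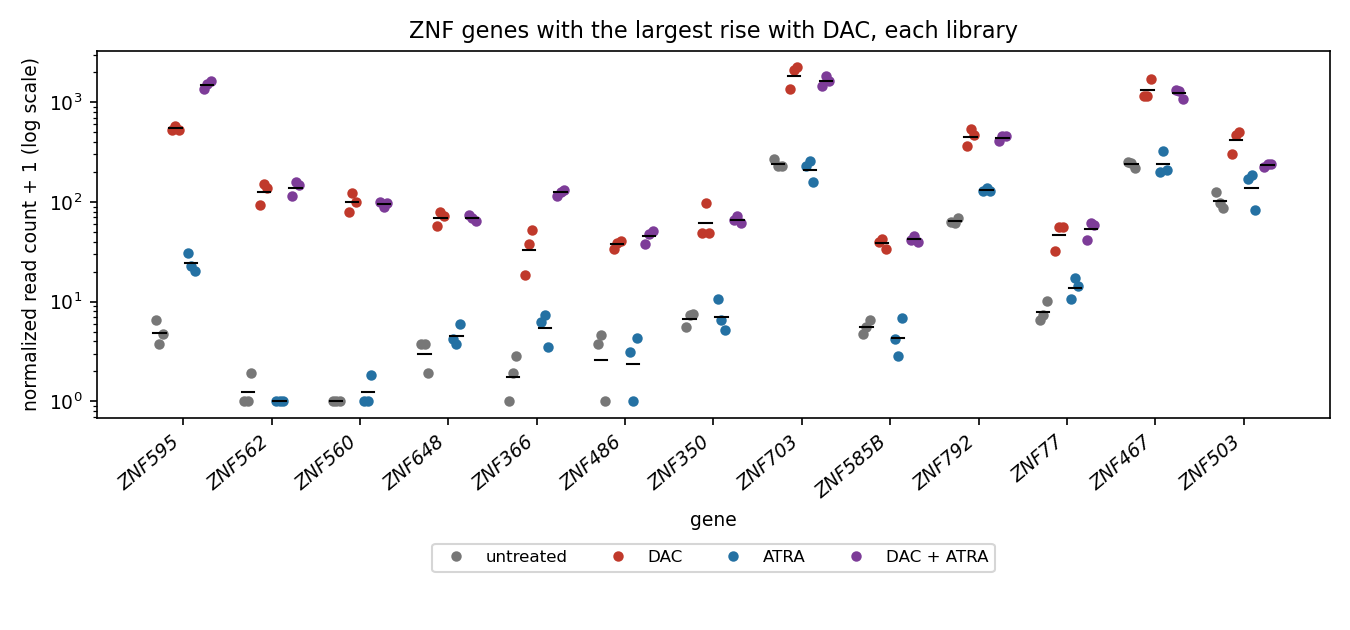
Normalized read count + 1 on a log axis for the 13 ZNF genes with the largest rise with DAC. Dots are libraries, 3 in each of the 4 groups, and bars are means on the log scale. The DAC and DAC + ATRA libraries lie above the untreated ones for every gene shown, while ATRA alone raised ZNF595, ZNF366 and ZNF792. The genes were chosen as called higher with no overlap of DAC and untreated libraries, so the DAC part is fixed by the choice.

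A further 18 members rose between 2- and 4-fold with DAC, among them ZNF701, ZNF551, ZNF416, ZNF426, ZNF814, ZNF264, ZNF710, ZNF547, ZNF432 and ZNF516. The remaining 31 of the 62 rose less than 2-fold, down to ZNF609 with a log2 fold change of 0.28. Of the 199 members with an untreated mean of at least 20, 50 rose and 17 fell, 25.1% up beside the 22.2% of all rows and the 32.5% of protein-coding rows. Choosing members on untreated cells alone gave 205 genes, with 50 up and 18 down.

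The members that fell with DAC changed less. ZNF250 had 127, 143 and 139 normalized reads untreated and 53.0, 50.7 and 54.8 with DAC (log2 fold change -1.35 ± 0.17 SE, limma adjusted p 2.57e-07). ZNF519, a KRAB gene whose window is printed above, had 418, 450 and 521 untreated and 210, 192 and 153 with DAC (-1.32 ± 0.15 SE, limma adjusted p 4.33e-08). ZNF169 had 91.9, 137 and 118 untreated and 49.7, 39.0 and 52.8 with DAC (-1.27 ± 0.20 SE, limma adjusted p 7.64e-06). In each of these genes the highest DAC library was below the lowest untreated library.

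ZNF330 encodes a nucleolar protein in which no C2H2 finger was found. It had 40.4, 42.8 and 42.5 normalized reads untreated, and 20.5, 19.5 and 12.9 with DAC (-1.23 ± 0.29 SE), and as its DAC level lies under the limit for members no test is given. ZNF25 had 128, 175 and 118 untreated and 84.3, 80.9 and 62.7 with DAC (-0.87 ± 0.17 SE, limma adjusted p 2.16e-04). The other 12 members that fell changed by less than 2-fold, from ZNF449 at -0.85 to ZNF749 at -0.48.

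**Figure D2:**
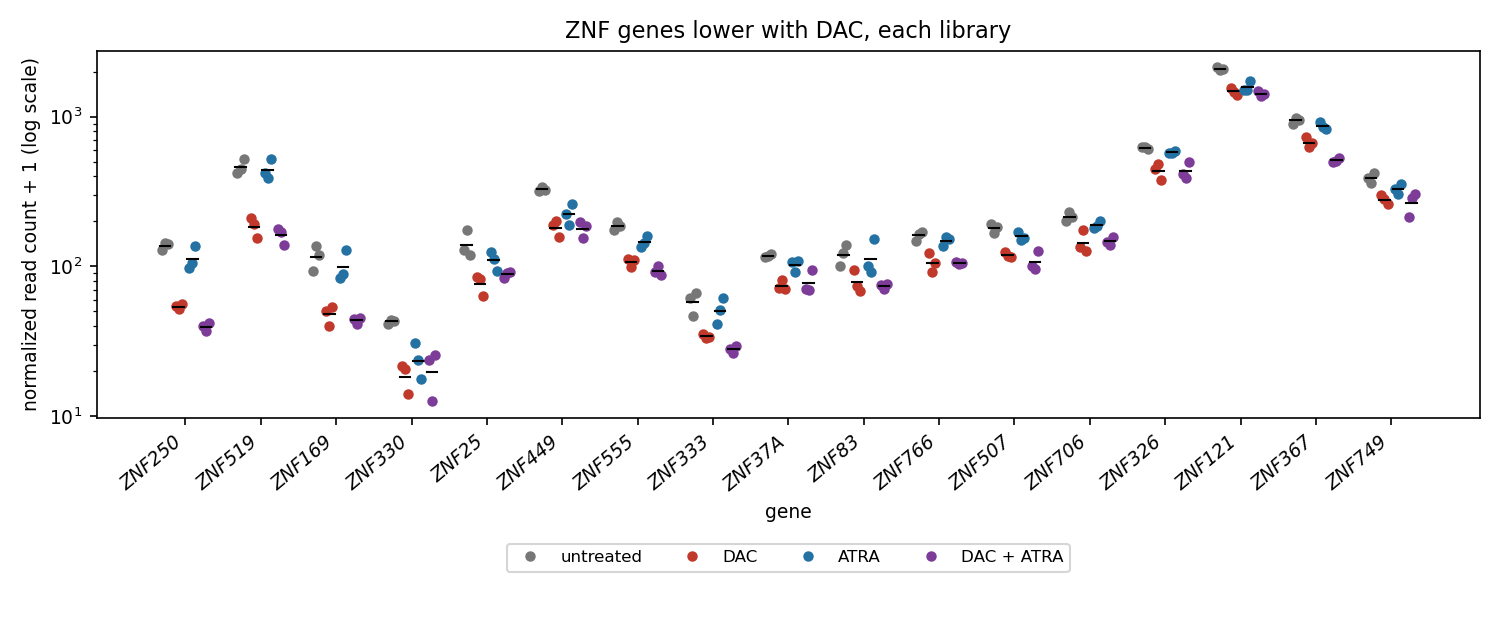
Normalized read count + 1 on a log axis for the 17 ZNF genes lower with DAC than in untreated cells. Dots are libraries, 3 per group, and bars are means on the log scale. All DAC libraries lie below all untreated ones, while the ATRA libraries overlap the untreated ones for 10 of the genes. The genes were chosen as lower than these same untreated libraries, so both statements are a description.

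ATRA alone changed few ZNF genes. In ATRA cells 3 members rose and 2 fell, 2.34% of the members, where 6.97% of all rows (5.11% up, 1.87% down) and 11.4% of the protein-coding rows with a mean of at least 20 were called. Over the 199 members with an untreated mean of at least 20 it was 1 up and 2 down. The other rises were those of ZNF595 and ZNF366, which met the limit for members through other treated groups. At an unadjusted p under 0.05 there were 39 members, a description, since no share of all rows at that cut is at hand. ZNF595 rose to 29.6, 21.8 and 19.1 normalized reads (log2 fold change 2.32 ± 0.19 SE, limma adjusted p 6.38e-10), a small level beside DAC. ZNF792 rose to 127, 137 and 127 (1.03 ± 0.14 SE, limma adjusted p 5.75e-06). Both were above their untreated range in all 3 libraries.

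ZNF366 had 5.28, 6.37 and 2.50 normalized reads with ATRA, a ratio of 5.03 with a 95% counting interval of 1.42 to 27.1. ZNF366 met the limit for members only through its DAC + ATRA level, so these values are a description. Its limma call was lost with edgeR and DESeq2. ZNF121 went from 2133, 2045 and 2092 untreated to 1508, 1501 and 1730 (-0.41 ± 0.10 SE, limma adjusted p 0.00467). ZNF449, on the X chromosome, went from 317, 340 and 325 to 223, 188 and 261 (-0.56 ± 0.14 SE, limma adjusted p 0.00941). Only 2 of the 5 calls were kept when each library was left out in turn, and without ATRA library 9 there were 13 calls.

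In DAC + ATRA cells 67 members rose and 22 fell against untreated cells, 41.6% of the members and likewise 41.6% of all rows (25.5% up, 16.1% down), while 50.8% of the protein-coding rows with a mean of at least 20 were called. Over the 199 members with an untreated mean of at least 20, 53 rose and 22 fell, 26.6% up, and the other 14 rises were largely fixed by the choice of members. The median log2 fold change of all members was 0.20, against 0.05 over all rows and 0.15 over those protein-coding rows. Scaled by library size, the split was 56 up and 32 down, 63.6% up instead of 75.3%. The same untreated libraries served both comparisons, so their calls share that source. Called in the same direction with DAC and with DAC + ATRA but not with ATRA were 51 members upward and 15 downward. In all 3 treatments 3 rose and 2 fell, 8 rose with DAC only by this threshold, 13 rose and 5 fell with DAC + ATRA only, and 117 passed in none. Shares of all rows with these patterns are not at hand, so the pattern counts are a description.

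ZNF560 reached 98.5, 87.4 and 96.4 normalized reads with DAC + ATRA, at least 34.2-fold above the 3 reads per library. ZNF562 reached 115, 156 and 147. ZNF648 reached 73.2, 67.4 and 63.0. These values lay within or close to the range of the DAC libraries, and none of the 3 genes passed the test between DAC + ATRA and DAC.

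ZNF350, ZNF486 and ZNF585B likewise had means of 65.4 ± 5.62, 44.7 ± 6.95 and 41.1 ± 2.97 (SD, n = 3) with DAC + ATRA. Among the genes that fell, ZNF250 had 38.9, 35.8 and 40.8 normalized reads with DAC + ATRA (-1.80 ± 0.17 SE, limma adjusted p 1.32e-09). ZNF333 had 60.7, 45.5 and 65.6 untreated and 27.1, 25.3 and 28.4 with DAC + ATRA (-1.05 ± 0.21 SE, limma adjusted p 1.77e-04).

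**Figure D3:**
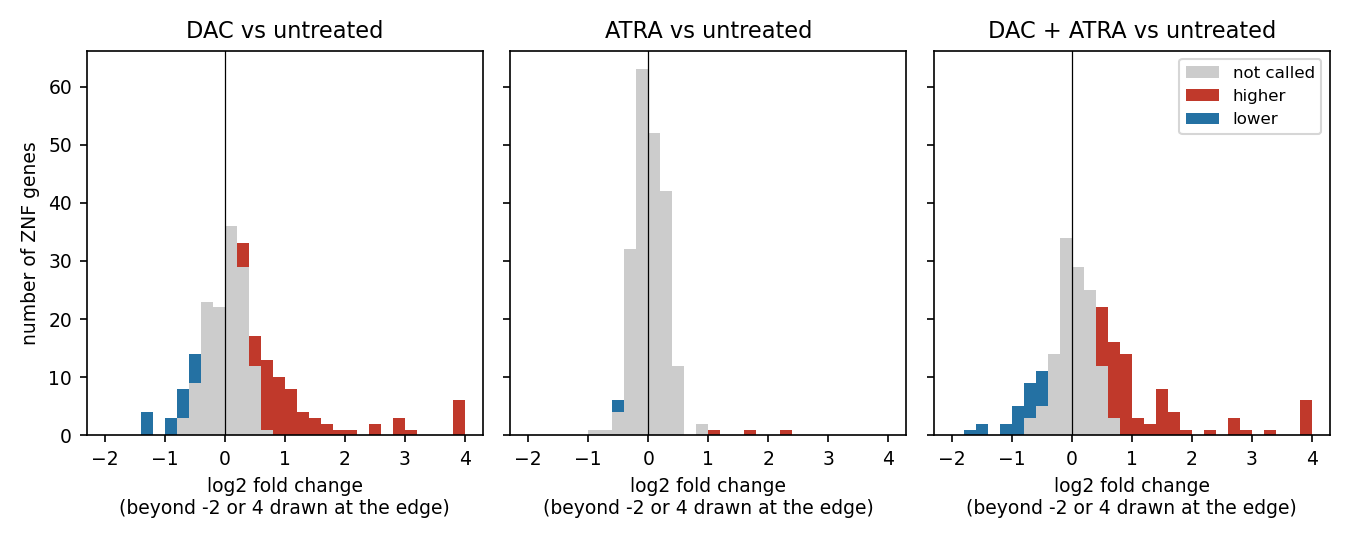
Number of ZNF genes by log2 fold change against untreated cells, in 3 panels for DAC, ATRA and DAC + ATRA, with called genes in colour and values beyond the axis drawn at its edge. The medians are 0.18, 0.01 and 0.20, and a tail of induced genes is present with DAC and DAC + ATRA but holds only 3 genes with ATRA.

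Adding ATRA to DAC changed 9 members, 6 upward and 3 downward, against DAC alone. This was 4.21% of the members, below the 8.77% of all rows (5.18% up, 3.59% down) and the 13.6% of the protein-coding rows with a mean of at least 20. Over the 199 members with an untreated mean of at least 20 it was 3 up and 3 down, and the other rises were those of ZNF366, ZNF595 and ZNF687. ZNF366 had 114, 126 and 132 normalized reads with DAC + ATRA against 17.3, 37.0 and 51.8 with DAC (log2 fold change 1.91 ± 0.40 SE). It met the limit for members only through its DAC + ATRA level, so this difference is a description with no test. ZNF595 had 1376, 1541 and 1621 against 532, 579 and 530 (1.46 ± 0.19 SE, limma adjusted p 2.21e-06). Every DAC + ATRA library exceeded every DAC library in both genes, and both also rose with ATRA alone.

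ZNF687, which acts in a complex with ZNF592 and ZMYND8, had 38.9, 43.2 and 34.6 normalized reads with DAC + ATRA against 16.2, 20.5 and 22.9 with DAC (0.94 ± 0.23 SE). Its ATRA values of 38.0, 30.0 and 39.9 were as high, while its untreated and DAC means of 19.6 and 19.9 lay under the limit for members, so it entered through the groups with ATRA and its values are given with no test. ZNF224, ZNF165 and ZNF175 were higher with log2 fold changes of 0.65, 0.57 and 0.53.

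Members lower with DAC + ATRA than with DAC were ZNF395, ZNF318 and ZNF609. ZNF395 had 1180, 1177 and 1093 normalized reads with DAC and 693, 766 and 796 with DAC + ATRA (-0.61 ± 0.11 SE, limma adjusted p 1.26e-04). ZNF318, which is needed for IgD expression in B cells, had 3145, 3636 and 3306 with DAC and 2301, 2501 and 2483 with DAC + ATRA (-0.47 ± 0.09 SE, limma adjusted p 5.11e-04). ZNF609, whose locus also makes a well-known circular RNA, had 6323, 5933 and 6273 with DAC and 4458, 5017 and 4668 with DAC + ATRA (-0.39 ± 0.08 SE, limma adjusted p 0.00179). ZNF318 and ZNF609 rose with DAC and were back near their untreated level with the combination, whereas ZNF395 passed the threshold with neither drug alone. Leaving out each library in turn kept 3 of the 9 calls, with 4 calls without DAC + ATRA library 12 and 13 without ATRA library 9.

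Whether the drugs acted other than additively on the log2 scale was tested by the interaction of DAC and ATRA. Only ZNF792 passed among 214 members, 0.467% against 1.51% of all rows (0.527% up, 0.986% down). An unadjusted p under 0.05 was found in 31 members, a description, since no share of all rows at that cut is at hand. ZNF792 rose from a mean of 63.3 to 130 with ATRA and to 453 with DAC, but was at 405, 454 and 457 with both drugs. The interaction was -1.06 ± 0.20 SE (limma adjusted p 0.00179), that is, the effect of ATRA on top of DAC was smaller than that of ATRA alone. The call was lost without DAC + ATRA library 10, and without ATRA library 9 there were 8 calls. For ZNF595 the interaction was -0.85 ± 0.26 SE (limma adjusted p 0.0847), and for ZNF366 it was 0.28 with a 95% interval of -0.89 to 1.45. The untreated values of ZNF366 were so low that the 1 added before the logarithm bears on the size and sign of its interaction.

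**Figure D4:**
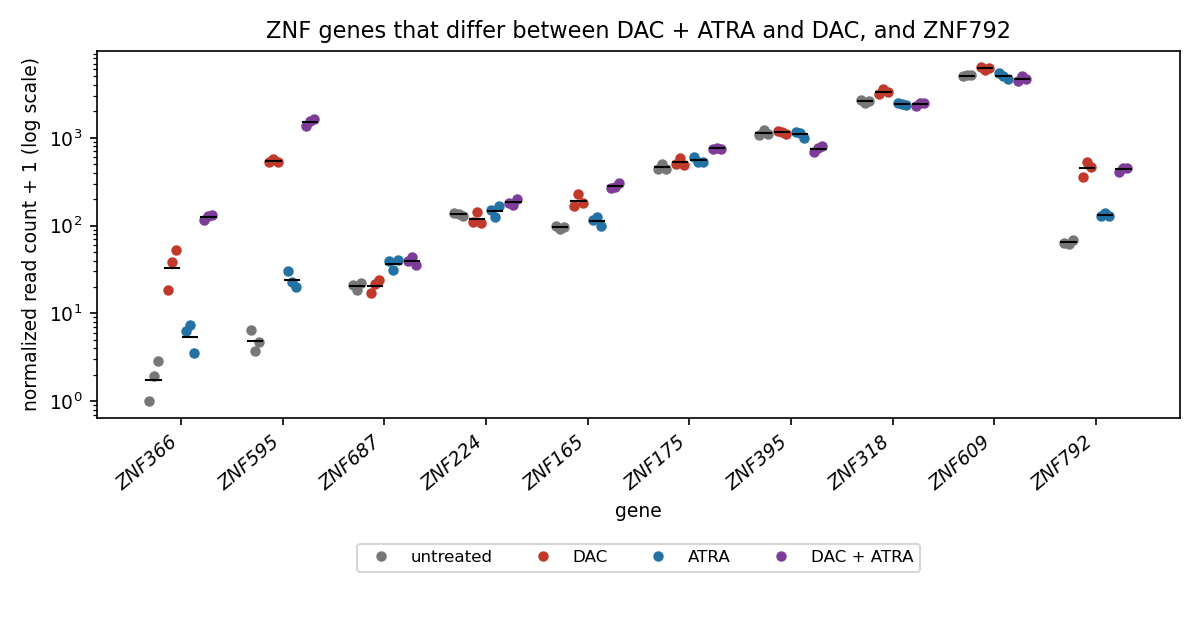
Normalized read count + 1 on a log axis for the 9 ZNF genes that differ between DAC + ATRA and DAC, and for ZNF792. Dots are libraries, 3 per group, and bars are means on the log scale. ZNF366 and ZNF595 stand highest with both drugs, and ZNF792 is level between DAC and DAC + ATRA.

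Against ATRA alone, DAC + ATRA cells had 55 members higher and 15 lower, 32.7% against 29.4% of all rows (19.1% up, 10.2% down) and 37.7% of the protein-coding rows with a mean of at least 20 (26.7% up). Over the 199 members with an untreated mean of at least 20 it was 43 higher and 15 lower. The largest fold changes were those of ZNF562, ZNF560 and ZNF595, with values already given.

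By role, the members known to act on transposons or imprinted loci come first. Of 7 such symbols 5 were members, and 2 rose with DAC and 3 with DAC + ATRA, where 22.2% and 25.5% of all rows rose. The medians of these 5 were 0.23 and 0.59, against 0.05 over all rows in both comparisons. ZNF417, which represses HERV-K elements, had 42.3, 45.5 and 41.6 normalized reads untreated, 81.1, 90.6 and 80.7 with DAC and 88.6, 103 and 101 with DAC + ATRA. Both treated groups were above untreated (0.95 ± 0.17 and 1.16 ± 0.17 SE, limma adjusted p 5.19e-05 and 2.33e-06). Its close paralogue ZNF587 had 198 ± 12.03 untreated and 159 ± 9.93 with DAC (SD, n = 3; limma adjusted p 0.0495), and reads could be split between the paralogues.

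ZNF274, which binds the ends of other ZNF genes and recruits SETDB1, rose from 193, 183 and 225 to 278, 296 and 315 with DAC (0.57 ± 0.13 SE, limma adjusted p 6.16e-04). This row is a retained-intron transcript, and the next row of ZNF274 had a log2 fold change of -0.19. ZNF93, a repressor of LINE-1 elements, had 138 ± 7.03 untreated and 209 ± 15.8 with DAC + ATRA (SD, n = 3; 0.59 ± 0.15 SE, limma adjusted p 0.00156). ZNF445, a guardian of imprinted loci, had 560 ± 100 untreated, 512 ± 29.2 with DAC and 502 ± 42.1 with DAC + ATRA, and the groups overlapped.

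Of 18 symbols known for promoter methylation in tumours only ZNF350 and ZNF549 were members. ZNF549 had 236, 228 and 247 normalized reads untreated and 282, 269 and 308 with DAC, which did not pass the test (0.27 ± 0.12 SE, limma adjusted p 0.0751).

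Among 9 members known as transcription regulators without a KRAB domain, 4 rose with DAC and none fell, and with DAC + ATRA 5 rose and 2 fell. Over all rows, 33.5% were called with DAC and 41.6% with DAC + ATRA. Besides ZNF703 these were ZNF516, ZNF335 and ZNF592, and ZNF687 with the combination, which entered the members through the groups with ATRA and lends its call no weight. ZNF281, a regulator of stem cell identity, fell with DAC + ATRA from 219, 218 and 175 to 154, 122 and 140 (-0.55 ± 0.17 SE, limma adjusted p 0.00709). The median of this list was 0.07 with DAC and 0.58 with DAC + ATRA, against 0.05 over all rows in both comparisons.

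Among 8 members with roles at RNA, ribosomes, SUMO or the spindle, 1 rose and 3 fell with DAC, where 22.2% of all rows rose and 11.3% fell, and their median was 0.07 against 0.05. ZNF451, a SUMO ligase, rose from 297, 224 and 204 to 325, 466 and 372 (0.68 ± 0.15 SE, limma adjusted p 5.22e-04), but a second row of ZNF451 went the other way, at -1.58 (limma adjusted p 0.00266). The genes that fell were ZNF330, ZNF326 and ZNF706. The fall of ZNF330, whose DAC level lies under the limit for members, is a description. For ZNF326 the log2 fold change was -0.52, but its next row had 0.22 and was not called. With DAC + ATRA 3 members of this list rose and 3 fell, beside 25.5% and 16.1% of all rows.

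The members with most reads changed by less than 2-fold in every comparison. ZNF609, ZNF318, ZNF629, ZNF787 and ZNF106 had the highest means, 5264, 2703, 2637, 2166 and 2039 normalized reads. Per kilobase of exon the order was different, with ZNF787 at 1117, ZNF609 at 585, ZNF629 at 433, ZNF318 at 329 and ZNF106 at 195. ZNF629 and ZNF787 passed no test against untreated cells, and ZNF106 rose only with DAC + ATRA (0.45 ± 0.09 SE, limma adjusted p 2.43e-04). Summed over the 214 members, the libraries held 60349 to 62438 normalized reads untreated, 74536 to 78850 with DAC, 59404 to 67250 with ATRA and 71141 to 76713 with DAC + ATRA.

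The partners of the KRAB domain were measured as well. Of 28 corepressor genes 22 were tested, and 4 rose and 6 fell with DAC, where 22.2% of all rows rose and 11.3% fell. Each gene stands for the transcript row with its highest mean, which can rest on a small stretch of the gene. The levels and changes given here are those of such rows and need not be those of the whole genes. Their median log2 fold change was -0.21, against 0.05 over all rows. TRIM28, the scaffold, was at 26.3 ± 4.002 untreated and 26.4 ± 2.24 with DAC (SD, n = 3; limma adjusted p 0.974), and SETDB1 at 15.3 ± 1.35 and 9.49 ± 0.632 (limma adjusted p 0.0991). CBX5, which encodes the heterochromatin protein HP1 alpha, was lower with DAC (10348 ± 156 to 5461 ± 587, -0.93 ± 0.09 SE, limma adjusted p 1.97e-09). With DAC + ATRA 6 rose and 8 fell, beside 25.5% and 16.1% of all rows. DNMT3A, a de novo methyltransferase, was highest of the list with ATRA (1025 ± 39.4 to 2664 ± 46.6, 1.38 ± 0.09 SE, limma adjusted p 2.60e-11) and with DAC + ATRA (2761 ± 62.9, 1.43 ± 0.09 SE, limma adjusted p 2.01e-12). DNMT1, the maintenance methyltransferase, was lowest with DAC + ATRA (163 ± 16.7 to 73.6 ± 3.85, -1.13 ± 0.16 SE, limma adjusted p 2.10e-06). WIZ, a partner of the G9a methyltransferases, was higher with DAC (1.14 ± 0.19 SE, limma adjusted p 2.07e-05). Of 87 C2H2 relatives named ZFP, ZSCAN, ZKSCAN or ZBTB, 40 met the same rule, and 8 rose and 4 fell with DAC, a share near the 33.5% called over all rows. Their median was 0.20. ZFP3 had the highest log2 fold change, from 6.43 ± 1.63 to 60.6 ± 19.4 (SD, n = 3; 3.02 ± 0.33 SE), and it too met the limit only through the treated groups.

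Members with and without a KRAB domain, and on and off chromosome 19, are described next. A coding sequence was found for 213 members, of which 206 held at least 1 C2H2 finger, with a median of 10 and at most 36. The 7 without a match were ZNF185, ZNF330, ZNF487, ZNF503, ZNF703, ZNF720 and ZNF862. A strict KRAB pattern matched 95 members, of which 29 rose and 5 fell with DAC, against 33 and 12 of the 118 without it. These are 30.5% and 28.0% up, beside 22.2% of all rows and 32.5% of the protein-coding rows with a mean of at least 20. A looser pattern, chosen after the strict one had been seen to miss known KRAB genes, matched 118 members, with 36 up and 9 down against 26 and 8 of 95. Members with an untreated mean under 20, such as ZNF595, ZNF562 and ZNF486, are counted in these classes. Their rise was largely fixed by the choice of members. No test was made between these classes.

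On chromosome 19 lay 96 members, of which 28 rose and 7 fell with DAC, 29.2% up against 29.1% of the 117 on other chromosomes. Grouped where neighbours lay within 1000000 bases, the members formed 16 clusters of 1 to 36 genes, and those described here were chosen after their values were seen, with 22.2% of all rows and 32.5% of the protein-coding rows called up. The cluster at chr19:55576774-58481228 held 36 members, with 12 up and 1 down. The cluster at chr19:51571283-53412009, which holds ZNF350 and ZNF701, had 6 up and 2 down of 12. The cluster at chr19:19668839-21329410, with ZNF486 and ZNF93, had 4 up of 8 with DAC and 7 up with DAC + ATRA. In contrast, none of the 7 members at chr19:11814273-12633840 and none of the 8 at chr19:43596595-44500522 was called with DAC. Members with an untreated mean under 20, among them ZNF350, ZNF486, ZNF560 and ZNF562, are counted in the rises on chromosome 19. Their rise was largely fixed by the choice of members. As a description, neighbours also had opposite values, since ZNF562 and ZNF560 were higher with DAC. ZNF121, which lies between them, fell from 2090 ± 43.9 to 1475 ± 85.6 (SD, n = 3; -0.50 ± 0.10 SE, limma adjusted p 1.18e-04).

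**Figure D5:**
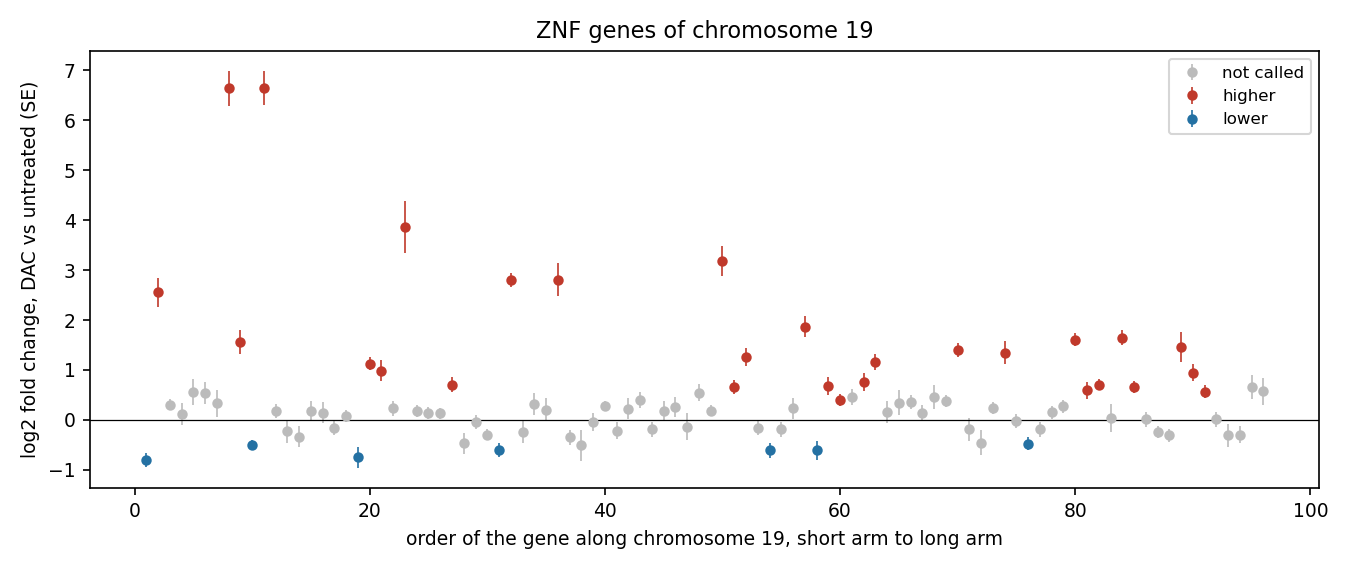
Log2 fold change of DAC against untreated, with its SE, for the 96 ZNF genes of chromosome 19 in the order in which they lie along the chromosome. Of the 28 genes called higher, 12, 6 and 4 lie in 3 of the 16 clusters, which hold 36, 12 and 8 genes, while runs of 7 and 8 neighbouring genes hold no call, and 7 genes are called lower. Members with an untreated mean under 20, whose rise was largely fixed by the choice of members, are included.

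The row chosen for a symbol mattered. Of the 214 members, 78 had a second tested row, and of 14 such genes that rose with DAC, the second row had the same sign in 9, was called up in 3 and was called down in 2. Of 10 that fell, the second row had the same sign in 9. Some chosen rows were not protein-coding models, since 179 of 213 matched members had a protein-coding row in GENCODE 44.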

How the data were processed

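RNA-seq was measured in 12 libraries of U937 cells, 3 in each of 4 groups. The authors aligned stranded paired-end reads with STAR to hg38, counted them per transcript with htseq-count and deposited 1 signal matrix, reads divided by a DESeq2 size factor per library, with 197782 transcript rows. The authors' columns name the group and a running number only. Reads shared by overlapping transcripts are not counted by htseq-count in its usual setting, so a row can rest on a small stretch of its gene. Whole reads were recovered from the step between values, and 100% of values lay within 0.01 of a whole read. In DAC library 6 the step was 0.996, close to 1, so edgeR was also run without it.

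The ZNF members and the lists were chosen with earlier results of these data known. The 19373 rows that reached 10 in 3 or more libraries entered 1 limma 3.58.1 fit (trend, robust) on log2(value + 1) over 12 libraries, with Benjamini-Hochberg adjustment per comparison and a threshold of 0.01. Log2 fold changes on this scale understate changes of low rows. Named are, per drug comparison, the 8 highest and 5 lowest called members whose libraries do not overlap, the 3 highest and lowest for DAC + ATRA against DAC and for the interaction, the 5 highest means, the edges of the limit, and list extremes. Genes named beyond these were chosen after their values were seen. Alternatives used edgeR 4.0.16 and DESeq2 1.42.0 on the recovered reads, other scalings, filters, rows and leave-one-out. Positions, exons and coding sequences came from GENCODE 44. It matched 213 of 214 members by transcript, 98 of them in the same version, and 13 members have no exon base outside other transcripts. The test was checked on simulated data. Intervals of read ratios cover counting error only. One list of marker genes is not reported here.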

Additional observations from a re-analysis of the deposited data

Results flagged for a closer look

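ZNF792 was picked out because the effect of ATRA differed between cells with and without DAC, by the interaction term. The difference of the log2 fold changes was -1.06 ± 0.20 SE (limma adjusted p 0.00179), with a rise of 1.03 with ATRA alone and of -0.03 with ATRA on top of DAC. Over all alternatives run, the value lay between -1.21 and -0.93.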

How the results depend on the processing

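No paired analysis was possible because the columns carry a running library number and no replicate number. Counts of changed members, 79 with DAC, 5 with ATRA, 89 with DAC + ATRA, 9 against DAC, 70 against ATRA and 1 for the interaction, ranged over leave-one-out from 65 to 89, 2 to 13, 73 to 100, 4 to 13, 52 to 70 and 0 to 8. The medians of the members minus that of all rows ranged from 0.125 to 0.158, 0.0081 to 0.036, 0.093 to 0.170, 0.012 to 0.063, 0.091 to 0.153 and 0.0072 to 0.078. With the next row of each symbol (78 genes) the counts were 13, 0, 15, 1, 11 and 0, with medians of -0.090 (DAC), -0.067 (DAC + ATRA), 0.091 (against DAC) and -0.12 (against ATRA). ATRA calls numbered 3 with at least 10 in every library, 2 in a fit of its 2 groups, 12 at a threshold of 0.05 and 8 with rows summed. At 0.05 there were 16 calls against DAC and 2 for the interaction, which also had 2 with DESeq2 and 2 without a filter. With protein-coding rows only, the medians for DAC, DAC + ATRA and against ATRA were 0.0087, 0.010 and -0.017. With summed rows they were 0.067, 0.10 and 0.055. Without a filter those for DAC and DAC + ATRA were 0.17 and 0.20. Members chosen on the untreated mean gave 0.083 (DAC + ATRA) and 0.070 (against ATRA). EdgeR without DAC library 6, added after seeing the data, gave 0.16 (DAC) and 0.0074 (interaction). Among the 33 members named by rule, ZNF274 (-0.19 with DAC) and ZNF585B (-0.22 against ATRA) were reversed in the next row. So was ZNF451 (-1.58, -0.99 and -1.13 with DAC, DAC + ATRA and against ATRA). ZNF326, a gene named beyond the rule, was reversed too (0.22 with DAC and 0.16 with DAC + ATRA). The cause was not tested. For the 33 members named by rule, 4790 of 4933 alternative values kept direction and side of the threshold, 114 lost the call and 24 gained one. Genes named beyond the rule were not covered by this count. Depth limits the members near silence in untreated cells, where 1 read decides a ratio.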

Other observations

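Of the 295 ZNF symbols below the limit, 144 had a mean under 1, and 54 of these had no read. Of 64 that passed the filter on low values, 15 rose and 2 fell with DAC, 1 rose and 1 fell with ATRA, and 21 rose and 1 fell with DAC + ATRA. Over all rows, 22.2%, 5.11% and 25.5% rose in these comparisons. These symbols passed the filter partly through the groups in which they are high, so the counts are a description.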
